A study of Rattus norvegicus with 24 samples.

Results

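The mRNAs of ribosomal proteins were followed after nerve injury in adult and neonatal rats, in the spinal dorsal horn, which receives the input of peripheral sensory neurons. A gene was a member if a probe set listed it as the single symbol and that symbol was Rpl or Rps followed by a digit, Rplp0, Rplp1, Rplp2 or Rpsa, with the Rps6k kinases left out. The rule found 44 of the 10411 genes that had such a probe set, 30 named for the large and 14 for the small subunit. Each gene was represented by its probe set with the highest mean. Of the 44, 40 passed the filter on low values and were tested, and all 40 lay above the filter level of 3.84 log2 on all 24 arrays.

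All animals were Sprague-Dawley rats, and total RNA came from the dorsal horn on the operated side. Spared nerve injury (SNI) meant that 2 branches of the sciatic nerve, the tibial and the common peroneal, were ligated and cut, with the sural branch kept intact, and in the sham operation that nerve was exposed without ligation. Adults were 8 to 12 weeks old. Neonates carry the label postnatal day 10, which may be the age at surgery or at collection. SNI tissue was taken 7 days after injury, whereas the sham labels give no time. The 4 groups, sham and SNI at each age, had 6 arrays each, which the design text calls biologically independent. In such bulk tissue fewer cells of a type and less RNA per cell cannot be told apart.

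The cytoplasmic ribosome is built from ribosomal RNA and a set of proteins present in about equal number, so the transcripts of these proteins are usually abundant and kept in proportion to each other. Most of these mRNAs begin with a terminal oligopyrimidine (TOP) tract, a C followed by a run of C and T (U in the RNA), through which the kinase mTOR controls their translation. In dorsal horn neurons and sensory neurons, translation under mTOR and S6 kinase is known for its part in pain after nerve injury. An array measures the amount of these mRNAs and not how strongly they are translated.

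The sequences around the start sites show the feature that most of these genes share and the members below without it. RefSeq start sites on the rat build GRCr8 were found for 39 of the 44 genes, 37 by gene identifier and 2 by symbol. Each line runs from 15 bases before the start to 15 bases from the start onward, on the strand of the gene, and capitals mark runs of at least 5 letters that are all C or T. The lines give Rpl19, Rpl35, Rps15 and Rplp0, with a C and at least 4 further C or T letters at the listed start, then Rpl5, whose run ends before the start, Rps9, whose run spans it with a T at the start itself, and Rpl7l1 and Rpl26, with no run of 8 nearby.

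Rpl19, chr10:83519049-83519078, plus strand: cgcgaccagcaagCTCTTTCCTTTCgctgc

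Rpl35, chr3:43165907-43165936, minus strand: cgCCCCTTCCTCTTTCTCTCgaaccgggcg

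Rps15, chr7:10068101-10068130, minus strand: cgctgacaccgCTTCCTTTTCCCagcagcc

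Rplp0, chr12:46718376-46718405, minus strand: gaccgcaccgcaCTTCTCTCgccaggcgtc

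Rpl5, chr14:1995211-1995240, minus strand: aCTCTCTTTCCCacgtcgcttgcgtcctgg

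Rps9, chr1:74430423-74430452, minus strand: tccggcggccacgTTTCTCTTTgtcacggg

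Rpl7l1, chr9:21695703-21695732, plus strand: agctgcagatgcattgtgggaagCCTTTaa

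Rpl26, chr10:54109677-54109706, plus strand: ctcgtgtcaacttacagaaccggaagtcgc

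A C at the listed start followed by 4 letters that are each C or T was present in 11 of the 39 members (28.2%), against 2.63% of 27457 promoters in the table. A run of at least 8 C or T letters within 20 bases of the start, on either side, was present in 26 of 39 members (66.7%) and in 15.2% of all promoters. The same run on the opposite strand was found in 1 of 39 members (2.56%) and in 17.0% of all promoters. The runs of both searches overlap each other. Listed starts can differ by some bases from the start used in this tissue, which was not measured.

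Most ribosomal protein transcripts were among the brightest probe sets when averaged over all arrays. Of the 44 genes, 36 had a mean over all arrays above 10.05 log2. This level marked the brightest 10% of all probe sets other than controls, tested or not. The highest value of the ribosomal protein genes was 13.66 log2, below the lowest array maximum of 14.88. Rps6, the small-subunit protein that S6 kinases phosphorylate, was measured at 13.32 ± 0.07 log2 in adult sham, 13.45 ± 0.10 in adult SNI, 13.19 ± 0.15 in neonate sham and 13.29 ± 0.08 in neonate SNI (SD, n = 6 each). The 4 genes that were not tested lay at or near the floor of the values. Rpl30, Rpl3l, the muscle paralog of Rpl3, and Rps4y2 were at 2.09 log2 on every array, and Rps27l, the paralog of Rps27, ran from 2.42 to 3.05. Rpl30 is a protein of every ribosome, so its probe set at the floor gives no information on its mRNA. Ribosomal protein genes have many near-identical processed pseudogenes, and how far a probe set also reads these is not known here.

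Markers of the labelled tissue were present. The mean over 15 neuronal genes ran from 11.60 to 11.97 log2 and that over 10 oligodendrocyte and myelin genes from 11.98 to 12.54 over the 24 arrays. The mean over 5 Schwann cell genes was 8.92 log2 on neonate sham 3 and 9.49 to 10.76 on the other arrays, and this array also had the lowest mean over the ribosomal protein genes. For comparisons that use neonate sham 3, the medians and counts above 0 over the 40 genes and their leading differences are given with and without it. Medians of other lists are given with all arrays.

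In adults, SNI was accompanied by small positive differences spread over nearly all ribosomal protein genes, none of which passed the test for a single gene. The mean over the 40 genes was 11.42, 11.60, 11.41, 11.49, 11.35 and 11.31 log2 on adult sham arrays 1 to 6 and 11.69, 11.52, 11.43, 11.64, 11.39 and 11.57 on adult SNI arrays 1 to 6. Adult SNI 1 and 4 lay above every sham array, and the groups overlapped. The difference was above 0 for 39 of 40 genes, against 41.4% of the 9638 probe sets tested, and its median was 0.10 log2 against -0.03 for all tested probe sets. Differences ran from -0.02 log2 for Rpl39 to 0.28 for Rps9. In limma 0 of the 40 genes passed an adjusted p of 0.05, where 2.0% of all tested probe sets did (1.95% higher and 0.0519% lower), and 3 genes, all higher in SNI, had an unadjusted p under 0.05, against 7.75% of all tested probe sets. None of the 40 had SNI and sham arrays without overlap, against 1.78% of all tested probe sets. The number of genes above 0 ran from 32 to 40, and the median from 0.07 to 0.14 log2, when 1 array was left out at a time, both lowest without adult SNI 1.

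**Figure D1:**
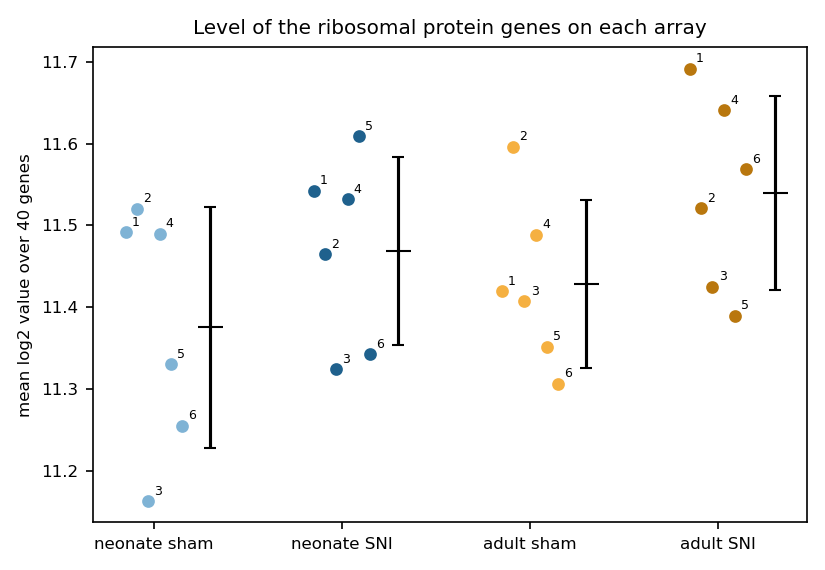
Each point is 1 array, numbered by its replicate, and shows the mean log2 value over the 40 tested ribosomal protein genes (vertical axis) for the 4 groups (horizontal axis); bars are group means ± SD (n = 6). The groups overlap, adult SNI 1 is the highest array at 11.69 and neonate sham 3 the lowest at 11.16.

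Same-numbered sham and SNI arrays did not move evenly. The mean SNI minus sham difference over the 40 genes was 0.27, -0.08, 0.02, 0.15, 0.04 and 0.26 log2 in adult numbers 1 to 6. All 40 genes were higher in SNI in numbers 1 and 6, and 8, 21, 31 and 24 in numbers 2, 3, 4 and 5. In neonates the mean differences were 0.05, -0.06, 0.16, 0.04, 0.28 and 0.09 log2, with 24, 7, 35, 28, 38 and 36 genes higher. Number 2 was thus the pair with a negative mean at both ages, and the largest differences came from other numbers in adults than in neonates.

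Among small-subunit genes in adults, Rps9, a protein of the decoding subunit, had the highest difference. Its values were 11.74, 11.82, 11.37, 11.70, 11.45 and 11.46 log2 on adult sham arrays 1 to 6 and 12.24, 11.88, 11.76, 11.91, 11.63 and 11.78 on adult SNI arrays 1 to 6. The SNI array was higher in 6 of 6 same-numbered pairs, and 3 SNI arrays lay above all sham arrays. The difference was 0.28 log2 (SE 0.098, limma adjusted p = 0.249), with a 95% interval of 0.08 to 0.48. With the replicate number as a block within each age the adjusted p was 0.0522, with 1 block per number over all arrays 0.0333, and after quantile normalization 0.0416. The median over the 12 tested small-subunit genes was 0.12 log2, with 12 of 12 above 0. Rps6 differed by 0.13 log2 and Rps15 by 0.03 log2.

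Among large-subunit genes Rpl5, which carries 5S ribosomal RNA into the ribosome together with Rpl11, had values of 12.49, 12.36, 12.14, 12.33, 12.30 and 12.21 log2 in adult sham and 12.68, 12.32, 12.71, 12.71, 12.36 and 12.60 in adult SNI. The SNI array was higher in 5 of 6 pairs, and 4 SNI arrays lay above all sham arrays. The difference was 0.26 log2 (SE 0.084, limma adjusted p = 0.173), and after quantile normalization the adjusted p was 0.0449. Its partner Rpl11 differed by 0.15 log2. Rplp0, the base of the stalk that recruits elongation factors, had values of 11.08, 11.73, 11.27, 11.29, 11.40 and 11.41 in adult sham and 11.58, 12.01, 11.02, 11.69, 11.56 and 11.92 in adult SNI. The SNI array was higher in 5 of 6 pairs, but number 3 was lower. The Rplp0 difference of 0.27 log2 (SE 0.164, limma adjusted p = 0.783) had the widest interval among the leading genes, -0.07 to 0.60. Rpl12, which binds at the foot of the stalk, differed by 0.24 log2, Rpl22 by 0.24 and Rpl14 by 0.22. The other end of the range held Rpl39, a protein of the exit tunnel, at -0.02, the Rpl7 paralog Rpl7l1 at 0.02 and Rpl18 at 0.02 log2. The median over the 28 tested large-subunit genes was 0.09 log2, with 27 above 0.

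The intervals bound how large a change these arrays leave room for. In adults 39 of 40 intervals lay within 0.5 log2 (1.41-fold) of 0, and the highest limit was 0.60 log2 (1.52-fold), that of Rplp0.

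In neonates the differences after SNI were of like size, and again no single gene passed. The mean over the 40 genes was 11.49, 11.52, 11.16, 11.49, 11.33 and 11.26 log2 on neonate sham arrays 1 to 6 and 11.54, 11.47, 11.32, 11.53, 11.61 and 11.34 on neonate SNI arrays 1 to 6. Neonate sham 3 was the lowest array of all, and the groups overlapped. The difference was above 0 for 40 of 40 genes, against 46.0% of all tested probe sets, with a median of 0.10 log2 against -0.01. In limma 0 of 40 genes passed, where 0.311% of all tested probe sets did, and 0 had an unadjusted p under 0.05, against 2.49%. None of the 40 had groups without overlap, against 0.467% of all tested probe sets. Without neonate sham 3 the median was 0.05 log2, and 36 of 40 genes were above 0.

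The highest neonatal differences were those of Rpl22 (0.18 log2, SE 0.125), Rpl12 (0.17, SE 0.123), Rpl18 (0.17, SE 0.148) and Rpl35 (0.15, SE 0.111), and the limma adjusted p of each was 1.0. Rpl22 was higher in SNI in 6 of 6 same-numbered pairs, with 11.32, 11.14, 10.68, 11.07, 10.99 and 10.77 log2 in sham and 11.32, 11.18, 10.86, 11.31, 11.34 and 11.02 in SNI. In the first of these pairs both arrays read 11.32 at the printed precision. Without neonate sham 3 the differences were 0.12 log2 for Rpl22, 0.08 for Rpl12, 0.07 for Rpl18 and 0.13 for Rpl35, which was then the highest. With all arrays the lowest differences were 0.00 for Rpl23a and 0.01 for Rpl4 and Rpl7l1. In neonates 39 of 40 intervals lay within 0.5 log2 of 0.

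**Figure D2:**
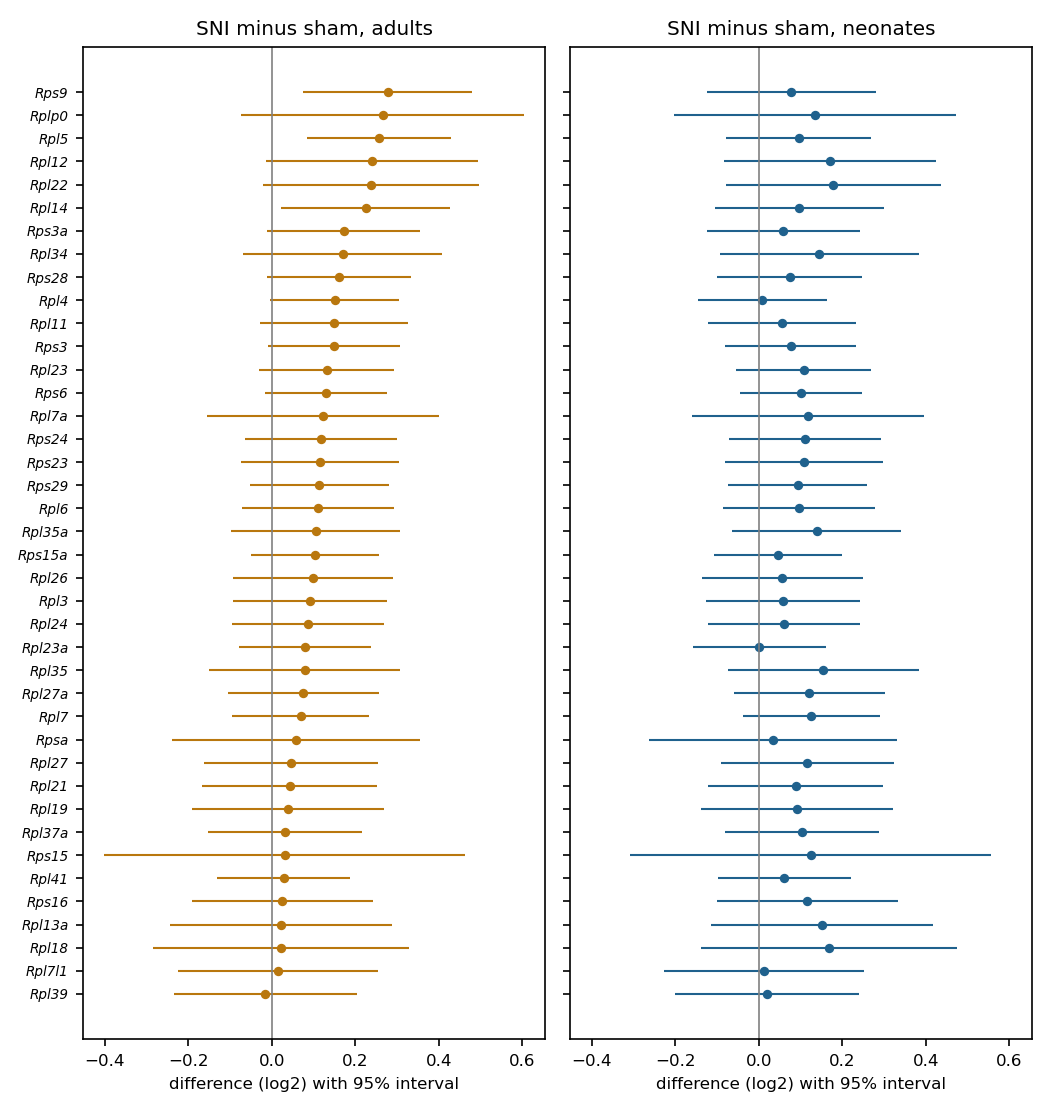
Points are SNI minus sham differences (horizontal axis, log2) of the 40 tested ribosomal protein genes (vertical axis, ordered by the adult value), in adults on the left and neonates on the right, and lines are 95% intervals. Nearly all points lie right of 0, from -0.02 to 0.28 in adults and 0.00 to 0.18 in neonates, while most intervals include 0.

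A test of the injury effects against each other found no gene that differed between the ages. In limma 0 of 40 genes passed for the adult minus neonate difference of the SNI effects, where 0.228% of all tested probe sets did, and 0 had an unadjusted p under 0.05, against 2.47%. The median was 0.02 log2, with 26 of 40 genes above 0 against 46.6% of all tested probe sets, and its sign depended on single arrays, with values from -0.01 (without neonate SNI 3) to 0.05 (without adult sham 2). The count above 0 ran from 16 (without neonate sham 2) to 28. Without neonate sham 3 the median was 0.05 log2 and 28 genes were above 0. Rps9 had the highest value, 0.20 log2 with an interval of -0.09 to 0.49, and Rpl18 the lowest, -0.15 with an interval of -0.58 to 0.29. With neonate sham 3 left out these were 0.25 and -0.05 log2. The 2 injury comparisons share no array, and 39 genes were above 0 in both, or 35 without neonate sham 3. The genes moved together within groups (mean correlation of pairs 0.48), so the 39 are not separate results. The order of the genes was hardly shared, with a Pearson correlation of 0.20 and a Spearman correlation of 0.08 over the 40 genes, which share their arrays. They were 0.01 and -0.06 without neonate sham 3.

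Age differences ran in both directions, from -0.28 to 0.30 log2 in sham and from -0.25 to 0.27 in SNI. Between sham groups the adult minus neonate difference was above 0 for 29 of 40 genes, against 43.8% of all tested probe sets, and the median was 0.07 log2 against -0.03. Without neonate sham 3 the median was 0.02 log2, and 23 genes were above 0. Without adult sham 2, neonate sham 6, neonate sham 2 or neonate sham 1 the median was 0.03, 0.03, 0.11 and 0.12 log2. In limma 0 of 40 passed, where 16.3% of all tested probe sets did (7.51% higher and 8.81% lower), and 4 had an unadjusted p under 0.05, 3 higher and 1 lower in adults, against 28.6%. None had groups without overlap, against 8.36% of all tested probe sets. Of all tested probe sets that passed, 46.0% were higher in adults, and 57.2% when each array was centred on its median.

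Between SNI groups the median was 0.11 log2 against -0.04, and 29 of 40 genes were above 0 against 42.6% of all tested probe sets. Without adult SNI 1 or 4 the median was 0.07 log2. Here 2 of 40 genes passed, both higher in adults, where 20.9% of all tested probe sets passed and 9.32% passed as higher. Including these 2, 7 genes higher and 1 lower in adults had an unadjusted p under 0.05, while 32.3% of all tested probe sets had one. None had groups without overlap, against 8.93% of all tested probe sets.

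The genes that rose with age among SNI arrays were Rpl5 and Rpl23a. Rpl5 stood at 12.56 ± 0.18 log2 in adult SNI and 12.29 ± 0.08 in neonate SNI (SD, n = 6), with single neonate SNI values of 12.32, 12.23, 12.21, 12.43, 12.28 and 12.30, and 4 adult arrays lay above all neonate ones. The difference was 0.27 log2 (SE 0.084, limma adjusted p = 0.0243). The call was lost without adult SNI 1, 3 or 4 or neonate SNI 2 (limma adjusted p = 0.0531, 0.0571, 0.0612 and 0.0504) and when only the SNI groups were fitted (0.0543). In sham the Rpl5 difference was 0.11 log2, and 0.06 without neonate sham 3.

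Rpl23a, a protein beside the exit of the nascent chain, had values of 10.34, 10.05, 10.28, 10.51, 10.08 and 10.27 log2 in adult SNI and 10.10, 10.03, 10.02, 10.09, 10.08 and 9.90 in neonate SNI. Adult SNI 2 and 5 lay within the neonate range, and the other 4 lay above it. The difference was 0.22 log2 (SE 0.077, limma adjusted p = 0.0462). The limma adjusted p was 0.0503 to 0.131 without any 1 of 19 arrays (all but adult sham 3 and 4, adult SNI 2 and 5 and neonate sham 6), 0.131 being the value without adult SNI 4, and 0.113 with only the SNI groups. In sham Rpl23a differed by 0.14 log2, and also by 0.14 without neonate sham 3.

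The highest age differences in sham belonged to other large-subunit genes. Rpl13a, also known outside the ribosome as part of a complex that silences inflammatory mRNAs, had 11.24, 11.06, 11.22, 10.99, 10.69 and 10.80 log2 in adult sham and 10.84, 10.80, 10.26, 10.95, 10.75 and 10.58 in neonate sham, and 4 adult arrays lay above all neonate ones. Its difference was 0.30 log2 (SE 0.129, limma adjusted p = 0.116). Rpl35, which sits at the exit tunnel, differed by 0.26 log2 (SE 0.111, adjusted p = 0.112), Rpl21 by 0.24 (SE 0.102, adjusted p = 0.115) and Rpl19 by 0.21 (SE 0.111, adjusted p = 0.216) in limma. With arrays centred on their medians Rpl35 and Rpl21 had a limma adjusted p of 0.0498 and 0.0490, and without adult sham 5 Rpl21 had 0.0409. Without neonate sham 3 the differences were 0.22 log2 for Rpl13a, 0.23 for Rpl35, 0.26 for Rpl21 and 0.16 for Rpl19.

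Several members lay lower in adults in both age comparisons. Rpl7l1 had 7.94, 8.59, 8.59, 8.54, 8.45 and 8.17 log2 in adult sham against 8.73, 8.82, 8.47, 8.76, 8.36 and 8.65 in neonate sham. Its difference was -0.25 log2 in sham (SE 0.116, limma adjusted p = 0.147) and -0.25 in SNI (adjusted p = 0.133). Its dimmer probe set had -0.29 and -0.26 log2 (limma adjusted p = 0.0704 and 0.0945), and the mean of both probe sets passed in sham (-0.27, adjusted p = 0.0329) and in SNI (-0.25, adjusted p = 0.0384). With 1 replicate block per number over all arrays the dimmer probe set passed in sham and SNI (limma adjusted p = 0.00923 and 0.0162). It also passed with array weights (limma adjusted p = 0.0165 and 0.0448). The representing probe set passed in neither setting. Without adult sham 3 the dimmer probe set differed by -0.34 in sham (limma adjusted p = 0.0374) and the representing one by -0.30 (adjusted p = 0.102). Rplp0 differed by -0.28 in sham and -0.15 in SNI (limma adjusted p = 0.274 and 0.579), and Rpsa, the small-subunit protein also described as a laminin receptor, by -0.19 and -0.16 (adjusted p = 0.424 and 0.469). The sham differences were -0.29 log2 for Rpl7l1, -0.39 for Rplp0 and -0.26 for Rpsa without neonate sham 3. The other probe sets of Rpsa gave 0.03 and -0.10 log2 in sham, so that the direction for this gene differed between probe sets there. In SNI they gave -0.14 and -0.20 log2, the same direction as the representing one. Without adult SNI 1 the representing probe set of Rpsa differed by -0.18 in SNI (limma adjusted p = 0.461) and the dimmest one by -0.28 (adjusted p = 0.0314).

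The pattern of age differences over the genes was alike in sham and in SNI, which share no array. The sign was the same for 36 of 40 genes, 27 higher and 9 lower in adults, with a Pearson correlation of 0.80 and a Spearman correlation of 0.78 over the 40 genes. The sign was the same for 34 genes without neonate sham 3, and the correlations were 0.80 and 0.77. These genes share their arrays, and same-numbered arrays also resemble each other across groups, so the correlation is a description.

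**Figure D3:**
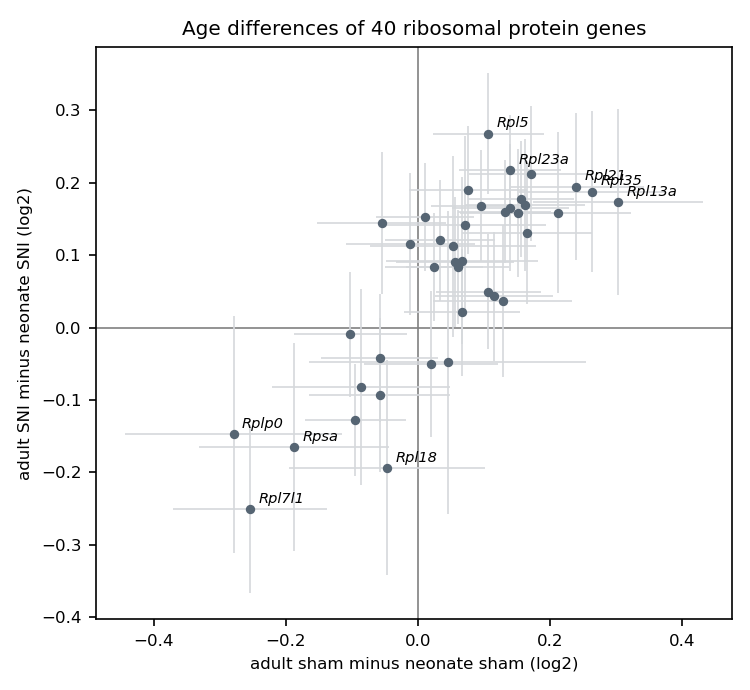
Each point is 1 of 40 tested ribosomal protein genes, with its adult minus neonate difference in sham on the horizontal and in SNI on the vertical axis (log2), and lines are ± 1 SE. Most points lie in the upper right or lower left, from Rpl7l1 at -0.25 on both axes to Rpl5 at 0.11 and 0.27.

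Within groups the ribosomal protein genes moved up and down together from array to array. After subtracting group means, the mean correlation over the 780 pairs of genes was 0.48, against 0.018 over all tested probe sets, and 742 pairs were above 0. The mean was 0.46 without neonate sham 3. For other lists it ran from -0.02 over 9 immature neuron genes to 0.42 over 5 Schwann cell genes. It was also 0.42 over 10 genes of fibroblasts and meninges, and 0.25 over 71 mitochondrial ribosomal protein genes. The first principal component held 58.8% of the variance of the 40 ribosomal protein genes within groups. Of the 40 genes 34 correlated above 0.5 with the mean of the other 39, with a median of 0.77 over all 40 and the highest value, 0.91, for Rpl37a. Rpl39, Rpl21 and Rps23 stood outside this common movement, with 0.05, 0.12 and 0.14. Rpl39 was the dimmest tested member, at 4.82 log2 on average, whereas Rps23, a protein of the decoding centre, averaged 13.31. The median SD within groups was 0.15 log2 for the members and 0.22 for all tested probe sets.

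**Figure D4:**
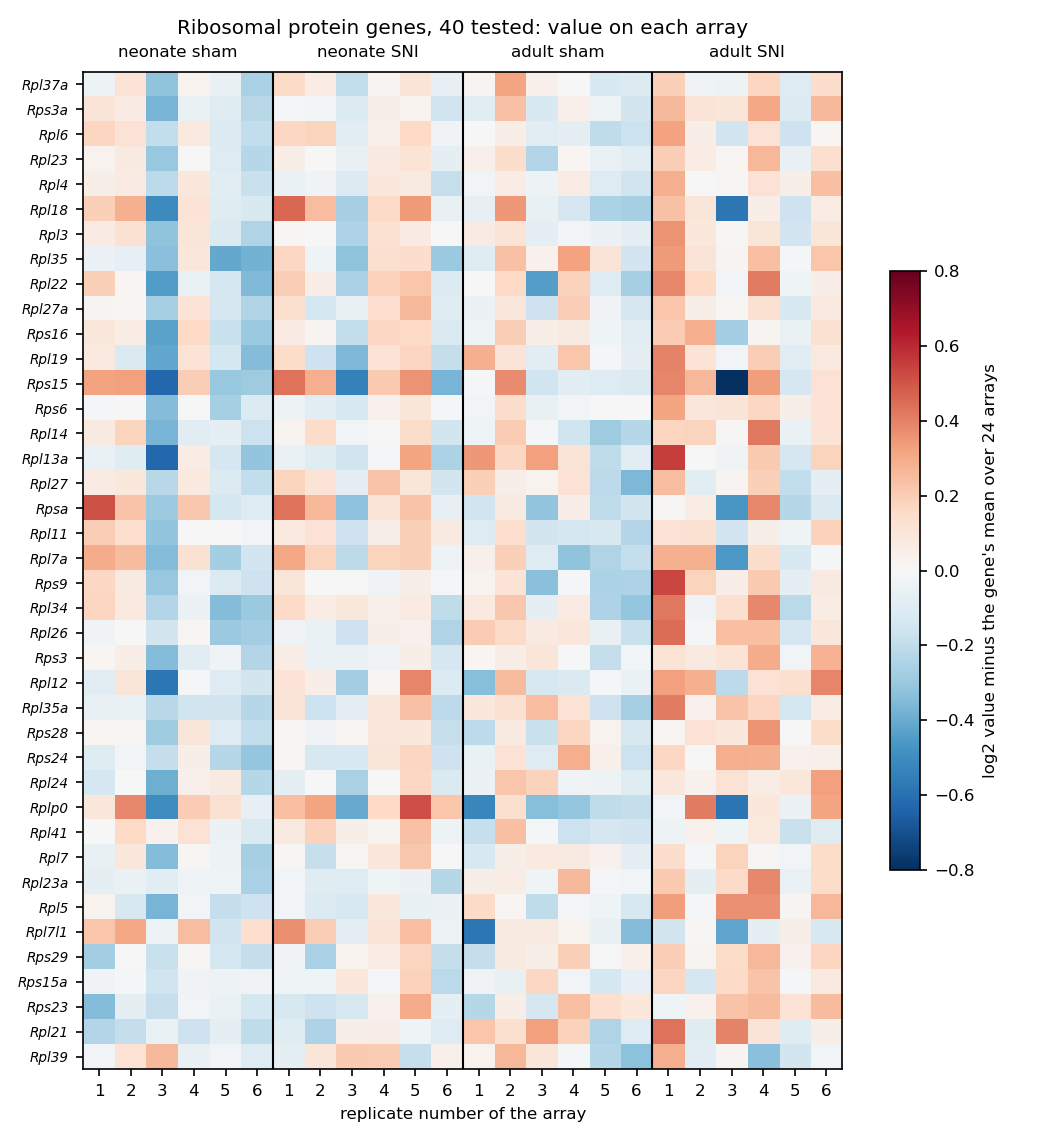
Rows are the 40 tested ribosomal protein genes, ordered by their correlation within groups with the mean of the others (highest on top), columns are the 24 arrays by group and replicate number, and colour is the log2 value minus the mean of the gene over all arrays. Whole columns share a colour, such as neonate sham 3 (blue, 2 of 40 genes above their mean) and adult sham 2 (red, 39 of 40), while the lowest rows, Rps23, Rpl21 and Rpl39, do not follow them.

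Part of this movement went with the replicate number. The mean deviation from the group mean over members and groups was 0.08, 0.07, -0.12, 0.08, -0.03 and -0.08 log2 for numbers 1 to 6, and number 3 lay below its group mean in 4 of 4 groups while number 4 lay above it in 4 of 4. Rps15 and Rpsa had array 3 as their lowest in 4 of 4 groups. For Rps15, a protein near the subunit interface, array 3 read 9.98 log2 in adult sham, 9.26 in adult SNI, 9.51 in neonate sham and 9.60 in neonate SNI, and the other arrays ran up to 10.57. The labels do not say what the numbers mark. The difference between the 3' and 5' GAPDH control probe sets, a measure of RNA integrity and labelling, averaged 1.17 log2 in adult sham, 1.14 in adult SNI, 1.10 in neonate sham and 1.07 in neonate SNI. Within groups it correlated at 0.49 with the mean of the members over 24 arrays, and the same difference for beta-actin at -0.26. Their part in the differences between groups was not tested.

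Other genes of protein synthesis gave a scale for these values. Their lists were chosen with earlier results of these data known. After injury 0 genes passed in limma in either direction at either age, of 32 for initiation, 12 for elongation and termination, 15 non-ribosomal TOP mRNAs, 34 for ribosome biogenesis, 12 for signal recognition and the nascent chain, 16 for mTOR and S6 kinase signalling and 71 mitochondrial ribosomal proteins. At an unadjusted p under 0.05 there were 1, 1, 1, 1, 0, 0 and 3 in adults and 0, 0, 0, 0, 1, 1 and 0 in neonates, in that order, with Eef1a1 in both the elongation and the TOP list. Over all tested probe sets 2.0% passed in adults and 0.311% in neonates. An unadjusted p under 0.05 was found for 7.75% of them in adults and 2.49% in neonates. In adults the list medians ran from -0.08 log2 for mitochondrial ribosomal proteins, whose products act in a separate ribosome, to 0.05 for elongation and termination. In neonates they ran from -0.05 for mTOR signalling to 0.06 for elongation and termination. Eef1a1, the elongation factor that brings tRNA to the ribosome and itself a TOP mRNA, differed by 0.19 log2 in adults (limma adjusted p = 0.631), and Rack1, a scaffold bound to the small subunit, by 0.16 (adjusted p = 0.837).

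With age, single genes of these lists changed, against 7.51% higher and 8.81% lower over all tested probe sets in sham and 9.32% higher and 11.5% lower in SNI. The counts for biogenesis and mitochondrial ribosomal proteins lay below these shares in both directions. In sham, 5 of 32 initiation genes fell and 0 rose, among them the helicase Eif4a1, which fell by 0.54 log2 (limma adjusted p = 3.92e-04), the exchange factor subunit Eif2b1, which fell by 0.81 (adjusted p = 8.99e-04), and the cap-binding homologue Eif4e2, which fell by 1.00 (adjusted p = 0.00556). In SNI 5 fell and 1 rose, with Eif4a1 at -0.55 (limma adjusted p = 2.55e-04). Of 34 biogenesis genes 1 rose and 1 fell in each comparison. Sbds, which matures the large subunit, rose by 0.53 log2 in sham and 0.41 in SNI (limma adjusted p = 7.57e-04 and 0.00572). In the mTOR list 2 of 16 fell in sham, the mTOR inhibitor Ddit4 by 0.59 and the translation repressor Eif4ebp2 by 0.45 log2 (limma adjusted p = 0.00678 and 0.0195), and 1 of 16, Ddit4, fell in SNI. Of 71 mitochondrial ribosomal protein genes 1 rose and 3 fell in sham and 1 rose and 5 fell in SNI, with Mrpl41 at -0.41 and -0.44 log2 (limma adjusted p = 0.00788 and 0.00374). In the signal recognition list 1 of 12 rose and 1 fell in sham, and 0 rose and 3 fell in SNI, with the lowest p for the translocon subunit Sec61b at -0.41 log2 (limma adjusted p = 0.00231). In the elongation and TOP lists 0 genes passed in limma in either age comparison. At an unadjusted p under 0.05 there were 0 in sham, against 28.6% of all tested probe sets. In SNI there were 1 and 0, against 32.3%.

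**Figure D5:**
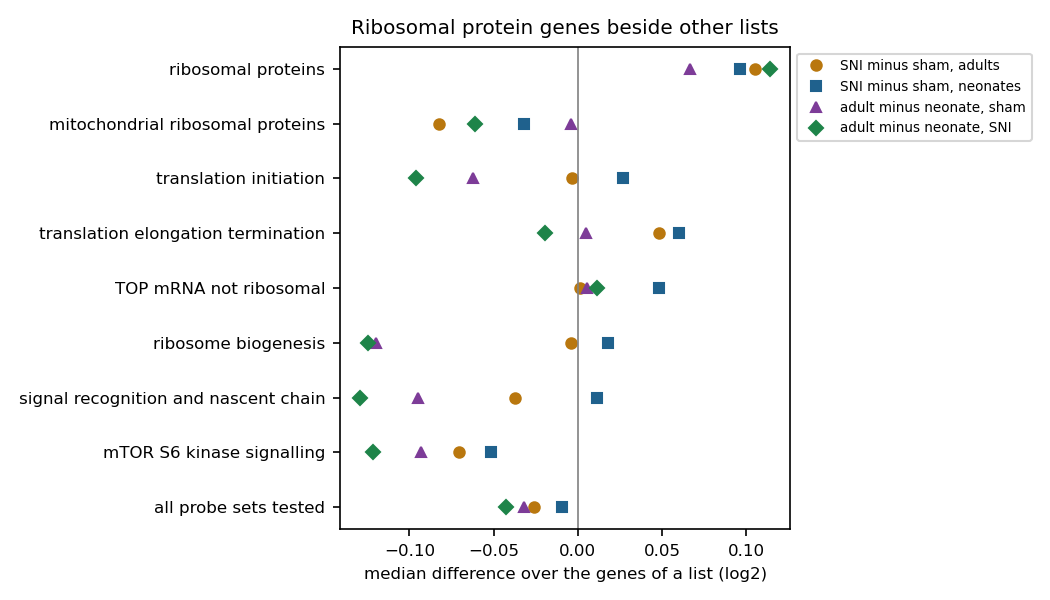
Symbols are the median differences (horizontal axis, log2) over the tested genes of each list (vertical axis) in 4 comparisons. The ribosomal protein genes lie at 0.10, 0.10, 0.07 and 0.11 log2, right of the medians of all tested probe sets at -0.03, -0.01, -0.03 and -0.04.

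Within groups the mean of the ribosomal protein genes followed the means of several of these lists over the 24 arrays. The correlation was 0.92 with mitochondrial ribosomal proteins, 0.91 with the non-ribosomal TOP mRNAs, 0.91 with signal recognition, 0.86 with initiation and 0.82 with elongation. It was 0.63 with ribosome biogenesis and -0.01 with mTOR signalling. For marker lists it ran from -0.27 with immature neurons and -0.20 with neurons to 0.42 with Schwann cells. It was 0.41 with blood cells, 0.37 with oligodendrocytes and myelin and 0.30 with microglia and macrophages. All lists are read from the same arrays.

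Microglia and macrophage genes moved with the injury groups at both ages. Of 16 tested genes 16 rose in adults and 9 in neonates in limma, against 1.95% and 0.311% of all tested probe sets, and the list mean was 5.93 to 6.26 log2 in adult sham and 7.91 to 8.36 in adult SNI, 5.53 to 5.86 in neonate sham and 6.21 to 6.65 in neonate SNI. With age, several lists moved. Blood cell means were 8.18 to 9.93 log2 in adult sham and 6.51 to 6.85 in neonate sham. Between sham groups 7 of 16 microglia and macrophage genes passed in limma as higher in adults and 0 as lower. These counts were 3 and 1 of 12 for astrocytes and 0 and 3 of 10 for oligodendrocytes and myelin. They were 1 and 4 of 9 for immature neurons and 1 and 4 of 10 for fibroblasts and meninges. Over all tested probe sets 7.51% passed as higher and 8.81% as lower. The part of these cells in the differences of the ribosomal protein genes was not tested.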

How the data were processed

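The deposited values are log2 expression per probe set of the Affymetrix Rat Expression 230A array, made by the authors with GCRMA, per the submitters' processing notes, which corrects background by probe sequence and normalizes across arrays. Its version and the genome build are not given in the sources used here. GCRMA sets dim probe sets to a common floor, 2.09 log2 at the lowest, and its normalization across arrays would remove a shift of all mRNAs alike. Of 15923 probe sets 57 controls were removed, and 12783 of the rest had 1 gene symbol in the platform annotation, 312 several and 2771 none. The 28 probe sets that list several symbols which are all ribosomal protein symbols, Rplp1 among them, were used as an alternative only.

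The log2 values were fitted as they stand in limma 3.58.1 (R 4.3.3), 1 mean per group over 24 arrays, 20 residual and 3.81 prior degrees of freedom. Tests covered the 9638 probe sets that exceeded 3.84 log2, the 40th percentile of the whole table, on 6 or more arrays, two-sided, with Benjamini-Hochberg adjustment over all of them at 0.05. Intervals are at 95%. The fit was tested on simulated data. The number of arrays limits the precision. Counts and medians over lists are descriptions without a test.

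Members, lists and naming rule (members that pass, the 4 highest and 4 lowest differences of each contrast, stalk proteins, Rpsa, Rps6, paralogs, and up to 3 genes of each list by p) were chosen with earlier results of these data known. Rps15, Rpl37a, Rps23, Rpl4, Rpl14 and Rpl26 were also named for their values or sequence. Deviations from group means correlated at 0.10 to 0.61 between same-numbered sham and SNI arrays of an age, all 12 at or above 0.1. The numbers were therefore used as pairs within an age, for the pair counts and a block alternative. The main fit had no term for them. With that block 291 of all tested probe sets passed in adult injury, against 193 in the main fit. In neonatal injury 35 passed, against 30. Alternatives were other filters, scalings, variance models, replicate blocks, probe set choices and leaving out each array. Start sites came from the RefSeq promoter table (GRCr8). Tables and figures were made with Python 3.11.15, pandas 2.3.3 and matplotlib 3.10.9.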

Additional observations from a re-analysis of the deposited data

Results flagged for a closer look

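Single arrays stood far from the other 5 of their group for 9 of the 96 gene and group series of 6 arrays examined for this. Among separate series chance flags about 1 in 20. The genes moved together within groups (mean correlation of pairs 0.48) and several flags fell on 1 array, so the 9 are not separate results. In each, the gap to the nearest array was more than 0.625 of the whole range. Adult sham 2 was the high array for Rpl11 (12.08 against 11.71 to 11.84 log2 on the other arrays), Rpl18 (10.92 against 10.31 to 10.51), Rps15 (10.52 against 9.98 to 10.13) and Rps6 (13.46 against 13.26 to 13.32). Adult sham 4 was high for Rpl23a (10.39 against 10.09 to 10.18), and neonate sham 6 was low for the same gene (9.86 against 10.04 to 10.09). Neonate sham 3 was low for Rpl12 (10.27 against 10.70 to 10.94). Near the floor of the values, neonate SNI 4 was high for Rps27l (3.05 against 2.42 to 2.65), and Rps4y2 read 2.09 log2 on neonate SNI 5 as on the others, differing only past the printed decimals.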

How the results depend on the processing

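The count of ribosomal protein genes that passed depended on the setting. With all arrays, other filters, scalings, variance models, blocks and probe set means gave medians of 0.10 to 0.12 log2 in adult injury, 0.09 to 0.11 in neonatal injury, 0.01 to 0.05 for their difference, 0.06 to 0.10 for age in sham and 0.09 to 0.14 for age in SNI. In adult injury, 0 genes passed, with 1 under a replicate block over all arrays (Rps9) and 2 after quantile normalization (Rps9 and Rpl5). Of all 9638 tested probe sets, 297 passed under that block and 205 after quantile normalization, against 193 in the main fit. Under a replicate block within each age 0 genes passed in the injury comparisons, where 291 of all tested probe sets passed in adults and 35 in neonates. For age in sham, 0 passed, with 3 under the replicate block over all arrays (Rpl19, Rpl35 and Rpl21), 2 with arrays centred on their medians, 1 after quantile normalization, 1 with the mean of all probe sets of a gene, 1 with probe sets of several ribosomal protein symbols added (an alternative chosen after seeing the data), and 0 to 1 without single arrays. For age in SNI, 2 passed, with 5 after centring, 7 after quantile normalization, 0 with only the groups compared, 3 each under the replicate block over all arrays, with array weights and with the mean of all probe sets, 4 with probe sets of several symbols, and 0 to 3 without single arrays. Of all 9638 tested probe sets, 2468 passed for age in sham under the replicate block over all arrays, against 1573 in the main fit. Centring gave 1576, quantile normalization 1587 and the mean of all probe sets 1574. For age in SNI these counts were 2942, 1957, 2037 and 2011, in that order, against 2010. Array weights gave 2277 for age in SNI, and only the groups compared gave 1642. The gene added with the mean of all probe sets was Rpl7l1, which was lower in adults in both age comparisons. Of the probe sets of several symbols, 1 passed in sham and 2 in SNI, all lower in adults. The causes of these changes were not tested, except that single arrays and groups left out leave fewer samples. Across ages the arrays share only a number. Leaving out 1 array moved the median to 0.07 to 0.14 log2 in adult injury, 0.05 to 0.12 in neonatal injury, -0.01 to 0.05 for their difference, 0.02 to 0.12 for age in sham and 0.07 to 0.15 for age in SNI. With any 1 array left out, 0 genes passed in both injury comparisons and in their difference. Scalings shifted the median of all tested probe sets by less than 0.1 log2. GCRMA values near the floor limit Rpl30, Rpl3l, Rps4y2 and Rps27l.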
